A study of Mus musculus with 2 samples.

Results

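The regions described here are the 1000 strongest accessible sites away from gene starts in mouse calf muscle, 1000 of 26641 distal shared peaks and of 49160 shared peaks in all. Accessibility was measured by DNase-seq, an assay that sequences the ends left where DNase I has cut open chromatin, in the gastrocnemius of female B6CASTF1/J mice (labelled B6Cast F1, a first-generation hybrid) aged 2 months. There was 1 group with 2 libraries, replicates 1 and 2, from separate biosamples described as different females but carrying the same donor identifier, so the spread between them may be partly technical. The study held no treatment, genotype or second tissue, and no comparison between groups was possible. A shared peak is a merged region in which a peak of each library overlapped by at least 1 bp. Regions more than 1 kb from any transcript start in GENCODE were kept, and the 1000 with the best mean rank of peak signal over both libraries were chosen by that signal. Peak signal, rank and the distance threshold are therefore given as description, and regions are not replicates of a condition. All positions are on GRCm38/mm10.

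Accessible DNA away from starts includes enhancers, where transcription factors bind and act on genes at a distance, boundary sites held by CTCF, and starts of transcripts that an annotation does not list. In skeletal muscle, MYOD and myogenin bind E-boxes with the core CAGCTG, and MEF2 factors bind beside them at genes of the contractile apparatus. A different set of factors, among them NF-Y, SP/KLF proteins, NRF1 and CREB, is expressed in nearly every cell and is best known from promoters, where NF-Y binds the CCAAT box and SP/KLF proteins bind GC boxes.

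The central 150 bp of 8 regions are shown, on the plus strand of the reference, because they carry the letters that the results turn on: 4 of the best ranked regions, then the best ranked region with the CACGTG E-box (near Nr1d1), the best ranked with a glucocorticoid receptor element (in Per1), a region in place 65 with an NRF1 site (near Gm20479), and the region nearest to the muscle actin gene Acta1. Capitals mark, on either strand, the CCAAT core and the longer NF-Y box CCAATCA, the GC box GGGCGGGG, the KLF box CCACACCC, the CREB/ATF site TGACGTCA, the E-boxes CACGTG and CAGCTG, and the consensus of NRF1 and of the glucocorticoid receptor. The bases come from the RefSeq copy of GRCm38.
Ptma region, chr1:86525306-86525455: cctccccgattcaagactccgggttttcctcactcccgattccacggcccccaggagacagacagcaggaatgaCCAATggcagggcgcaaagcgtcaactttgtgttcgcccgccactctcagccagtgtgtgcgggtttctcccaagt
Prdm2 region, chr4:143162141-143162290: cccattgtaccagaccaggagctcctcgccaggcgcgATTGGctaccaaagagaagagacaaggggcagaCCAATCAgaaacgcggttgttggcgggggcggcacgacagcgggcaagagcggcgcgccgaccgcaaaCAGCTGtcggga
Tle2 region, chr10:81571681-81571830: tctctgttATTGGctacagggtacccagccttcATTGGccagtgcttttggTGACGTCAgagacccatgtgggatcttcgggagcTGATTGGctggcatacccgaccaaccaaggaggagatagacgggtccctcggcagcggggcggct
Map1lc3b region, chr8:121585471-121585620: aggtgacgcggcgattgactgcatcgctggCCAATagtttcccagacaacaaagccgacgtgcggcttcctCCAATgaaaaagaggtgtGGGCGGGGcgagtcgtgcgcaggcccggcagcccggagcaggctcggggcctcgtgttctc
Nr1d1 region, chr11:98783441-98783590: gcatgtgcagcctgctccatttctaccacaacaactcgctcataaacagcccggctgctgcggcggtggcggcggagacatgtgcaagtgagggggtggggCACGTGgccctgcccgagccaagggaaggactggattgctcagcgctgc
Per1 region, chr11:69097076-69097225: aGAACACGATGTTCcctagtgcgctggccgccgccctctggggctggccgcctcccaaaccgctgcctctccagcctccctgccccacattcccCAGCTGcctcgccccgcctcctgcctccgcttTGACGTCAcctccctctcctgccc
Gm20479 region, chr7:27361476-27361625: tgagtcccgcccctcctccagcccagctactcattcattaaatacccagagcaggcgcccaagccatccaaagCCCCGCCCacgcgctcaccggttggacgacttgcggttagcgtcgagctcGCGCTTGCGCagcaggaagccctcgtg
Acta1 region, chr8:123883236-123883385: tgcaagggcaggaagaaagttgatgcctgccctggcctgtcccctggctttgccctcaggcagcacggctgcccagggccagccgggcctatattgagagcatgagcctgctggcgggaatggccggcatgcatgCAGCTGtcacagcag

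The 4 best ranked of these windows hold CCAAT 1, 2, 3 and 2 times in this order. The Tle2 window adds TGACGTCA, the CREB/ATF site, and the Map1lc3b window adds a GC box. The Per1 window holds a glucocorticoid receptor element, CAGCTG and TGACGTCA within 150 bp. The Acta1 window holds CAGCTG and none of the other marked letters.

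Peak signal at the 1000 regions ran from 1.81 to 43.0 with a median of 3.42 in replicate 1, and from 3.60 to 55.4 with a median of 6.94 in replicate 2. The scale of this deposited signal is not stated, so values are read only within a library. The medians at the other 25641 distal shared peaks were 0.732 and 1.29. The weakest region chosen lay at or above 17.9% of all peaks of replicate 1 counted from the top, and 4.79% of those of replicate 2, whose list was longer (258342 against 66984 peaks). Sequencing depth is unknown. At the edge of the choice, the region in place 1000, 3380 bp from a start of Dcakd, had signals of 2.29 and 5.90, and the first region left out, 2169 bp from a start of Jup, had 2.41 and 5.52, so the edge marks no step in the data.

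**Figure D1:**
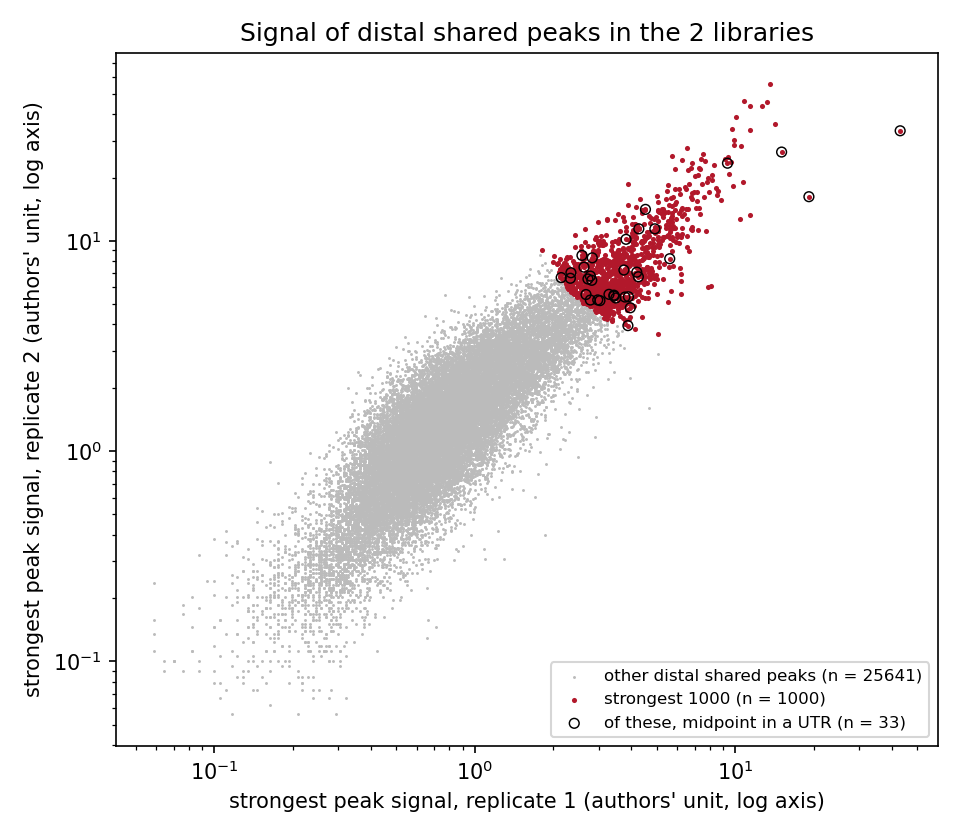
Each point is a distal shared peak, with the signal of its strongest peak in replicate 1 on the x axis and in replicate 2 on the y axis, both in the authors' unit on log axes. The 1000 strongest (red) form the upper end of one continuous cloud with the other 25641 (grey). Open circles mark the 33 whose midpoint lies in an annotated UTR.

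The best ranked region lay 1246 bp from a start of Ptma, which encodes the nuclear protein prothymosin alpha, with signals of 13.6 in replicate 1 and 55.4 in replicate 2. The next lay in an intron of Prdm2, a histone methyltransferase gene, with 13.2 and 45.9. It covered a start of Prdm2 in RefSeq that GENCODE does not give. The region in place 4 lay 2701 bp from Tle2, a transcriptional corepressor gene, with 12.7 and 43.8, and 757 bp from a RefSeq start of Gm31936. The region in place 5 lay 6197 bp from the GENCODE start of Zfp869, a zinc finger gene, with 14.2 and 35.8. Like the Prdm2 region, it covered a RefSeq start of its gene. Places 6 and 7 lay in introns of 4931414P19Rik (11.4 and 43.6) and Zfp516 (10.8 and 46.3), the latter 165 bp from a RefSeq start of Zfp516. Place 8 lay in an intron of Gm20388, 4701 bp from a start of the autophagy gene Map1lc3b (11.4 and 33.8). Place 9 lay in an intron of Mrps27, a mitochondrial ribosome gene (10.1 and 38.9). In place 11 was an intron of Igf1r, the receptor of insulin-like growth factor 1, with 9.71 and 34.1. Of the best 10 regions, 8 held CCAAT, which was in 25.9% of all 1000 and 17.3% of the other distal shared peaks. This core was sought after the best sequences had been seen, so the count is a description. The other 2 of the best 10 were those with a midpoint in a UTR.

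Those 2 regions lay in Cers5 and Lars2. The Cers5 region, in place 3, had the highest signal of any peak in replicate 1 (43.0) and 33.4 in replicate 2, a ratio of 0.776 where the median ratio of replicate 2 to replicate 1 over the 1000 regions was 2.07. It was the 1 region of the 1000 with no footprint in either library. The Lars2 region had 15.1 and 26.4, a ratio of 1.75 that lies between the quartiles of the 1000 regions (1.71 and 2.56), and 61.7% of the 31-base words around it recur in the genome. A region in a UTR of Ubqln1, in place 21, had 19.2 and 16.2, a ratio of 0.845. Ratios over all 1000 ran from 0.711 to 4.98, and 9 regions had a lower value in replicate 2 than in replicate 1. Of the 31-base words around the Cers5 and Ubqln1 regions, 0% recur in the genome. Beyond this count of words, whether mapping or copies of these exons bear on the signals was not tested.

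Choosing by 1 library gave largely overlapping regions. Of the 1000 distal shared peaks strongest in replicate 1 alone, 696 were among the 1000 strongest in replicate 2, and 990 were in its best 20% of distal shared peaks. In the other direction 993 of replicate 2's best 1000 were in the best 20% of replicate 1. Chosen by replicate 1 alone, the regions had a median signal of 6.45 in replicate 2, against 1.33 over all distal shared peaks there. Chosen by replicate 2 alone, they had 3.25 in replicate 1, against 0.755. Of these single-library choices, 848 and 840 are among the 1000 regions described.

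Several motifs of broadly expressed factors were more frequent in the strongest regions than in the other distal shared peaks. Of 30 consensus motifs sought on both strands in 150 bp windows, 7 were held by at least 1.5 times the share of the other distal shared peaks with exact 95% intervals apart, 2 were lower by the same line, and 21 did not pass it. These intervals cover counting error only. CCAATCA, the CCAAT box of NF-Y, was in 8.5% of the 1000 windows (interval 6.85 to 10.4), against 2.02% of the others, and in 2.7% of the next 1000 (1.79 to 3.90). GGGCGGGG, the GC box of SP/KLF factors, was in 9.1% (7.39 to 11.1) against 2.18%, and in 4.9% of the next 1000. TGACGTCA, bound by CREB and ATF factors, was in 2.0% (1.23 to 3.07) against 0.374%, and the consensus of NRF1, a factor of mitochondrial and growth genes, in 1.8% (1.07 to 2.83) against 0.308%. Just inside the edge of the choice, in places 501 to 1000, CCAATCA was in 6.0% (4.08 to 8.45), an interval apart from that of the next 1000. The GC box was in 7.2% (5.09 to 9.83) of these places, and its interval overlapped that of the next 1000 (3.65 to 6.43). The NRF1 share was 1.8% in the 1000 regions and in the next 1000.

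The other 3 called motifs were closer to the line. CACGTG, the E-box of USF, MITF/TFE and CLOCK-BMAL1, was in 6.9% (5.41 to 8.65) against 3.91%. The glucocorticoid and androgen receptor element was in 2.5% (1.62 to 3.67) against 1.09%. Chosen by replicate 1 alone the regions held it in 3.3%, a ratio of 3.12, and by replicate 2 alone in 1.8%, a ratio of 1.61 that was not called. CCACACCC, the CACCC box of KLF factors, was in 4.1% (2.96 to 5.52) against 2.58%. At least 1 of these 7 motifs was in 300 of the 1000 windows (11.8% of the others held one). CAGCTG with none of the 7 was in 22.8% (20.2 to 25.5) against 21.9%, with overlapping intervals that do not show a difference. The most frequent pairs were CACGTG with a GC box in 10 windows and NRF1 with a GC box in 8. Pairs were not counted in the other distal windows, so whether these counts are high or low was not tested. The best ranked windows with the receptor element were in Per1 (7.58 and 16.2), near Pptc7 (7.06 and 14.3) and near Amotl2 (5.67 and 15.9).

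**Figure D2:**
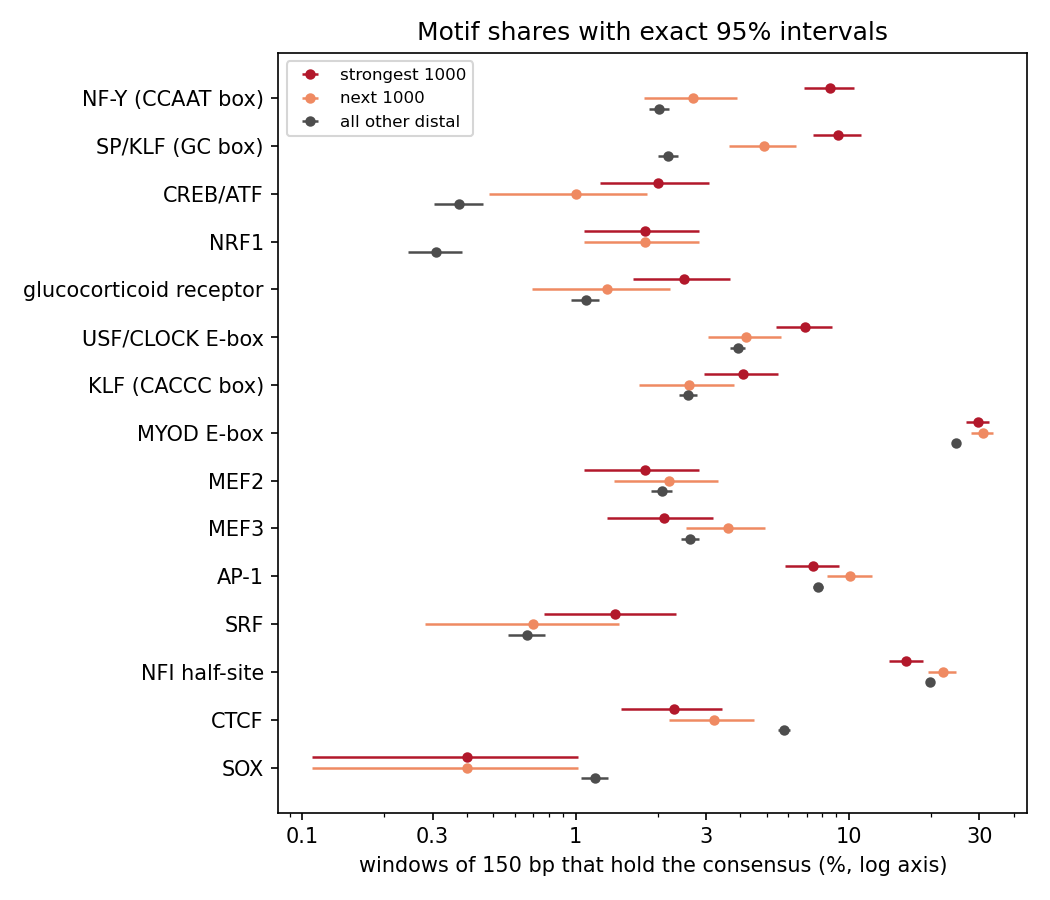
Share of 150 bp windows that hold each of 15 consensus motifs (x axis, percent, log scale) in the 1000 strongest regions, the next 1000 and all other distal shared peaks, with exact 95% intervals as bars. The CCAAT box, GC box, CREB/ATF, NRF1, glucocorticoid receptor, CACGTG and CACCC motifs lie to the right of the other distal peaks, CTCF and SOX lie to the left, and MEF2, MEF3 and AP-1 overlap them.

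Muscle and AP-1 motifs did not pass the line against the other distal shared peaks. Against windows 1 kb away that overlap no peak, CAGCTG did, at 4.50 times the share there (6.58%), as did AP-1, SRF and NFI half-sites. CAGCTG was the most frequent of the 30 motifs, in 29.6% (26.8 to 32.5) against 24.6%, with intervals apart but a ratio of 1.2, and it was in 30.8% of the next 1000. MEF2 boxes were in 1.8% (1.07 to 2.83) against 2.06%, and TCAGGTT, the MEF3 box of muscle genes, in 2.1% (1.30 to 3.19) against 2.63%. TGAGTCA, the AP-1 site of FOS and JUN proteins, was in 7.4% (5.85 to 9.20) against 7.69%. The SRF box, which binds serum response factor at actin and immediate early genes, was in 1.4% (0.767 to 2.34) against 0.663%, a ratio of 2.11 with intervals that touched, and it passed the line in 7 of 17 other settings. TTGGCA, the half-site of NFI factors, was in 16.2% (14.0 to 18.6) against 19.8%. CAGCTG was in 35.8% (32.3 to 39.3) of the 749 regions with few CpGs (observed over expected under 0.6). The other distal shared peaks with few CpGs held it in 25.4%, with intervals apart but a ratio of 1.41. Of the 251 regions with many CpGs, 11.2% (7.54 to 15.7) held it, against 14.3% of such other peaks, with overlapping intervals.

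CTCF, which holds loop boundaries, and SOX sites were rarer than elsewhere. The CTCF consensus was in 2.3% (1.46 to 3.43) against 5.79% of the other distal shared peaks, and ACAATGG, a SOX site, in 0.4% (0.109 to 1.02) against 1.18%. The next 1000 held CTCF in 3.2% (2.20 to 4.49), an overlapping interval, and the SOX site in 0.4% as well. Among the 1000 strongest shared peaks within 1 kb of a start, CTCF was in 2.2% (1.38 to 3.31) and the SOX site in 1.0% (0.481 to 1.83). The SOX share rests on 4 windows, and its call was lost in 6 of 17 other settings. The best ranked window with the CTCF consensus was in place 69, in an intron of Acot11, with signals of 5.75 and 16.1. CTCF shares were 3.6% in the best 250 regions and 6.89% in places 8001 to 16000.

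Down the order of signal the motif content changed within the 1000 themselves. CCAAT, the 5-letter core sought after the best sequences had been seen, was in 40.8% (34.6 to 47.2) of the best 250 regions, 25.2% (19.9 to 31.1) of the next 250 and 18.8% (15.5 to 22.5) of places 501 to 1000. It was in 25.9% (23.2 to 28.7) of all 1000 and in 17.3% of the other distal shared peaks, and 7.8% against 2.15% held it more than once. CAGCTG ran the other way, from 20.8% of the best 250 to 33.2% and 32.2% in the 2 later bins. GC boxes fell from 15.2% to 6.8% and 7.2%, and CACGTG from 10.4% to 6.0% and 5.6%. Median GC content of the windows fell alongside, from 62.7% through 60.7% to 58.7%, and its part in these shares was not tested. Without regions of high CpG content, CCAAT was in 22.6% (19.6 to 25.7) of 749 regions against 17.6%, and in 30.1% (22.4 to 38.6) of the 133 left from the best 250.

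**Figure D3:**
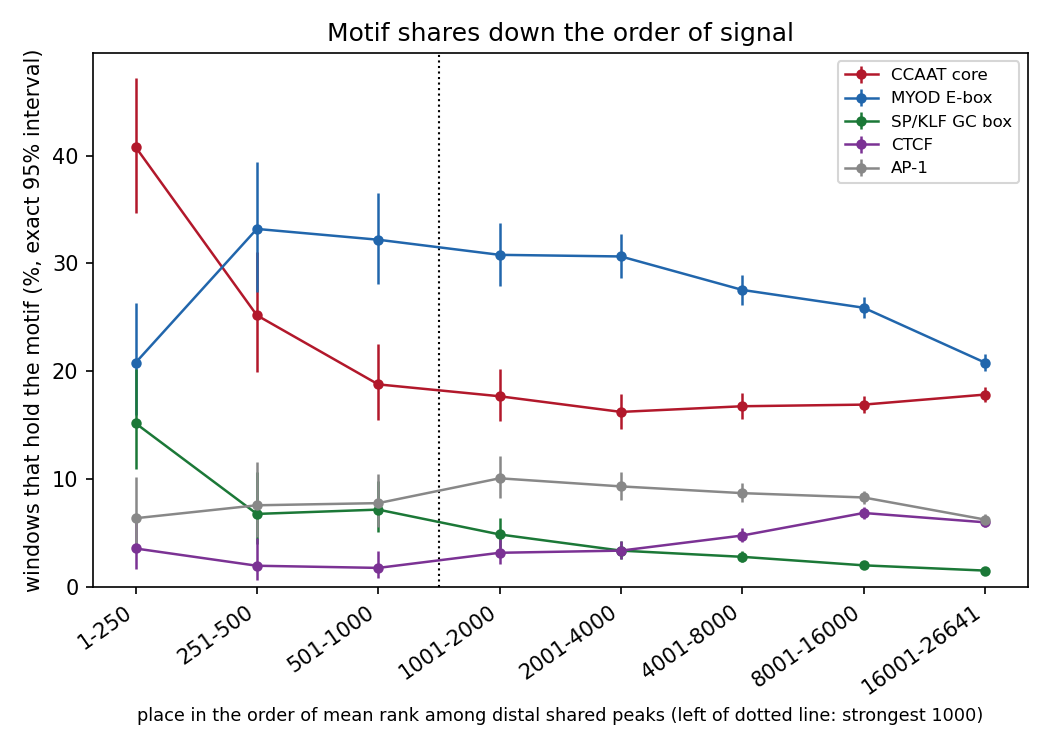
Share of windows with each motif (y axis, percent, bars are exact 95% intervals) in bins of the order of mean rank, with the 1000 strongest regions left of the dotted line. CCAAT falls from 40.8% to 18.8% over the first 3 bins and is flat after that, while CAGCTG is lowest in the first of these bins and CTCF rises to 6.89% in the bin of places 8001 to 16000.

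The strongest peaks near starts held other shares of these letters. Among the 1000 strongest shared peaks within 1 kb of a start, ranked the same way, CCAATCA was in 35.5% (32.5 to 38.6), GGGCGGGG in 21.6% (19.1 to 24.3) and the NRF1 consensus in 4.4% (3.21 to 5.86), each above the distal share with intervals apart. CAGCTG was in 5.7% (4.35 to 7.32) there, TGAGTCA in 0.5% (0.163 to 1.16) and the glucocorticoid receptor element in 0.2% (0.0242 to 0.721), each below the distal share with intervals apart. TGACGTCA was at 2.3% (1.46 to 3.43) there and 2.0% in the distal regions, with overlapping intervals.

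The authors' footprints, short stretches within accessible DNA where cuts are depleted, were dense at these regions. They derive from the same cuts as the signal that chose the regions, so their number is given as description. At least 1 footprint overlapped 99.3% of the regions in replicate 1 and 99.7% in replicate 2 (mean 99.5% ± 0.283, SD, n = 2), against 84.9% and 90.1% of the other distal shared peaks. The next 1000 were close, at 98.8% and 98.7%. The mean per region was 4.21 and 4.44 footprints, against 1.99 and 2.47, and 3.346 and 3.695 in the next 1000. Within the 1000 regions, 68.8% of the footprints called in replicate 1 and 64.5% of those called in replicate 2 met a footprint in the other library. At the other distal shared peaks these shares were 43.5% and 35%, and in the next 1000 they were 60.8% and 54.9%. Lsm4 (place 521), Rreb1 (557), Actn4 (771) and Nt5c2 (990) were nearest to regions that had none in replicate 1 and 2, 2, 1 and 3 in replicate 2.

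Of the 7 called motifs, CCAATCA, TGACGTCA, NRF1 and the GC box lay mostly in footprints, and the other 3 did not. CACGTG sites lay in them in 49.3% and 37% of 73, CCACACCC in 32.6% and 30.2% of 43, and the receptor element in 20% and 24% of 25, a ratio to coverage of 0.853 ± 0.0365 (SD, n = 2). Of 102 CCAATCA sites in the 1000 windows, 64.7% (54.6 to 73.9) had their centre in a footprint in replicate 1 and 74.5% (64.9 to 82.6) in replicate 2, where footprints covered 24.2% and 27.3% of the window bases. In the other distal windows the shares were 13.4% and 21% of 558 sites, with 10.6% and 14.5% of bases covered. Divided by that coverage, CCAATCA stood at 2.70 ± 0.037 (SD, n = 2) in the strongest regions and 1.36 ± 0.129 in the others. TGACGTCA sites lay in footprints in 90.0% and 85.0% of 20, NRF1 sites in 89.5% and 78.9% of 19, and GC boxes in 61.4% and 70.3% of 101. For TGACGTCA the ratio to coverage was 3.42 ± 0.431 (SD, n = 2), against 4.002 ± 0.521 in the other distal windows. For NRF1 it was 3.30 ± 0.573 against 5.18 ± 1.67, and for GC boxes 2.56 ± 0.0249 against 2.87 ± 0.511. Unlike that of CCAATCA, none of these mean ratios was higher in the strongest regions. TTGGCA, although not more frequent here, lay in footprints in 72.5% and 74.2% of 182 sites. Its ratio to coverage was 2.86 ± 0.201, against 3.11 ± 0.0732 in the other distal windows.

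CAGCTG behaved otherwise. Of its 355 sites 26.2% (21.7 to 31.1) lay in footprints in replicate 1 and 22.3% (18 to 26.9) in replicate 2, where 24.2% and 27.3% of bases were covered. In the other distal windows its ratio to coverage was 1.61 ± 0.0983, against 0.949 ± 0.190 here. The 23 CTCF sites had a ratio of 1.46 ± 0.484 here and 3.89 ± 0.823 elsewhere. CCAATCA sites also sat near the middle: 55.9% (45.7 to 65.7) of them lay within 25 bp of the window's centre, against 38.2% (34.1 to 42.3) in the other distal windows, while for CAGCTG the shares were 36.3% and 39.3%.

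The 1000 regions were richer in CpGs and G+C than the other distal shared peaks, and fewer of their windows were mostly repeat-masked. Observed over expected CpG reached 0.6 in 25.1% of windows (22.4 to 27.9), against 7.34% of the other distal shared peaks and 11.4% of the next 1000. Median GC content was 60% against 54.7%. The windows of 6 regions were more than 50% repeat-masked (0.6%, 0.22 to 1.30, against 3.34%), and the next 1000 were alike at 0.8%. In 14 regions at least 50% of the 31-base words recur in the genome (1.4%, 0.767 to 2.34). The others were at 2.20% (2.02 to 2.38), with overlapping intervals that do not show a difference, and the next 1000 at 0.7%. No word lay on the mitochondrial chromosome. Of the 14, the region in Il31ra had 10.7 and 19.1 and that near Igf2bp3 had 9.84 and 18.2. The 1 region on chromosome Y, with 3.98 and 4.94, and 2 on chromosome X near Gm21887 (5.93 and 9.87) and Mid1 (3.59 and 5.57) had every word repeated, and the mice were female.

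They lay nearer to starts than other distal sites, within the limit that chose them. The median distance was 7080 bp against 10170 bp, and 4.4% (3.21 to 5.86) lay over 50 kb away against 9.74%. Midpoints were in introns in 45.7% (42.6 to 48.8) against 50.8%, and between genes in 46.5% (43.4 to 49.6) against 40.7%. Coding exons held 2.1% (1.30 to 3.19) against 4.02%, and UTRs 3.3% (2.28 to 4.60) against 2.26%. RefSeq gives starts that GENCODE lacks, those of tRNA genes among them. Within 1 kb of a RefSeq start lay 112 regions (11.2%, 9.31 to 13.3, against 5.61%), 8 of them near a tRNA gene. A RefSeq start was covered by 48 regions (4.8%, 3.56 to 6.31, against 1.45%). Without those 112, each of the 7 motifs passed the line again, with CCAATCA in 7.55% of 888 regions, and the SRF box passed it as well.

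Known enhancers and tRNA genes were among them. RefSeq's list of 1019 mouse enhancers, mostly tested elements of the VISTA collection, overlapped 22 regions (2.2%, 1.38 to 3.31, against 0.757%). One of them lay 18270 bp from Fos, with 8.27 and 22.9. Other such elements were near Atoh8 (6.83 and 15.8), Irf2bp2 (5.59 and 14.9), Bahcc1 (5.06 and 13.9) and Fosb (5.6 and 11.3). The gene nearest to a further 2 was Btg2, an early response gene, with 4.52 and 14.0 and with 4.58 and 8.83. A tRNA gene started within 1 kb of 8 regions (0.8%, 0.346 to 1.57, against 0.456%), with overlapping intervals that do not show a difference.

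Accessible chromatin reached further around the strongest regions. The authors' cut-rate segments, all at or under an FDR of 0.05, covered the position 500 bp before the midpoint in 21% of the regions in replicate 1 and 35.9% in replicate 2, against 9.47% and 18.5% of the other distal shared peaks. At 2000 bp before it they covered 8.7% and 20.7%, against 6.26% and 13.4%. These segments come from the same cuts as the signal, so the profile is a description.

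**Figure D4:**
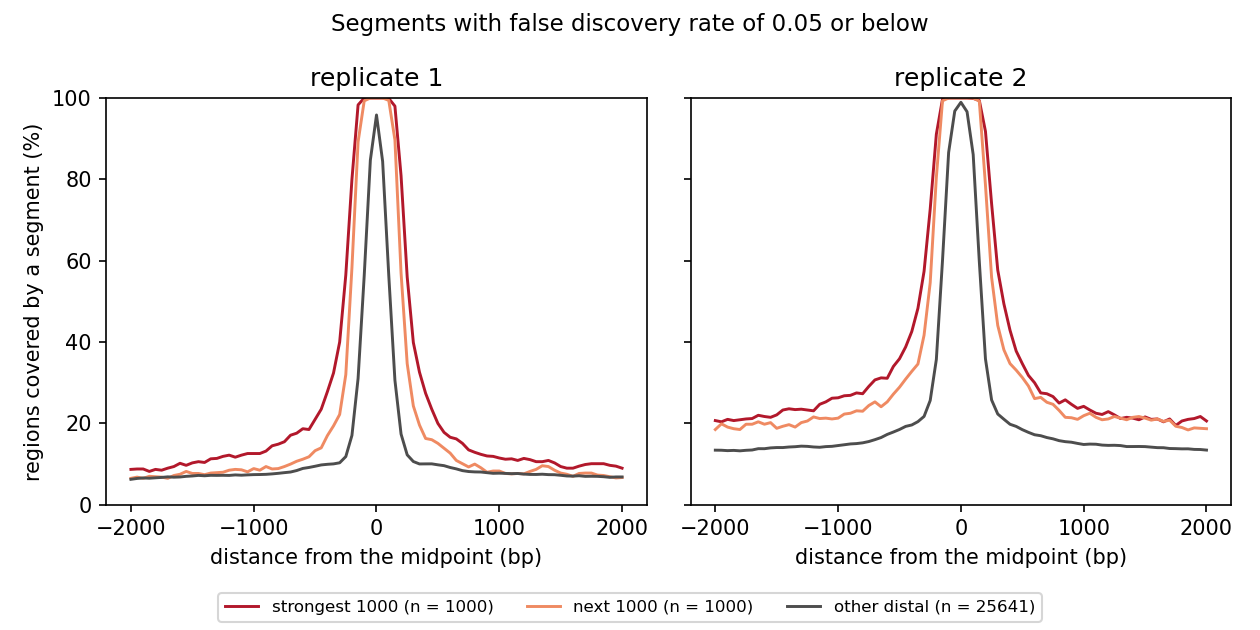
Share of regions (y axis, percent) in which a cut-rate segment (FDR at most 0.05) covers a position at the given distance from the midpoint (x axis, bp), for replicate 1 (left) and replicate 2 (right). The 1000 strongest regions lie above the next 1000 at 500 bp and above the other distal shared peaks out to 2000 bp in both libraries.

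Genes of the clock and of muscle regulation lay around these regions. Of 21938 protein-coding genes, 768 (3.50%) held 1 or more of the 1000 midpoints in their body plus 10 kb either side, and 8185 held a distal shared peak of any strength, of which 9.38% held one of the 1000. Of 19 clock genes, 7 held one: Nr1d1 (3), Bhlhe41 (2), Tef (2), Per1, Bhlhe40, Cry2 and Rora. Among 24 myogenic and muscle regulators there were 7, namely Nfia (2), Mafa, Mef2d, Tead4, Tbx15, Nfix and Tead1. The lists were drawn up with earlier results of these data known and their genes differ in length (median window 50.4 kb for the clock, 37.4 kb for all genes), so these counts are descriptive. Housekeeping genes held one in 2 of 12, Ppia among them.

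**Figure D5:**
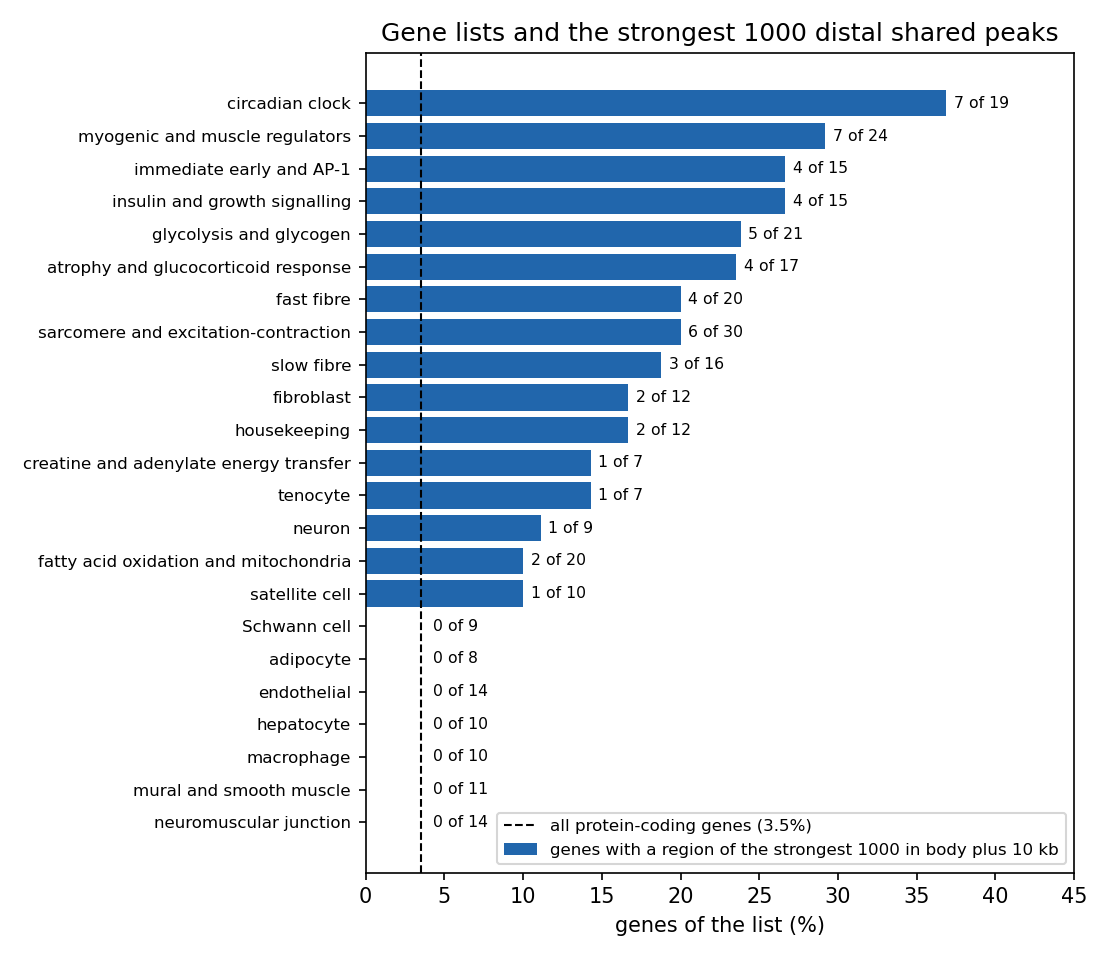
Share of the genes of each list (x axis, percent) with at least 1 of the 1000 regions in the gene body plus 10 kb either side, with counts beside the bars and the share over all protein-coding genes as a dashed line (3.50%). Clock genes have 7 of 19, and 7 lists, endothelial and neuromuscular junction genes among them, have none.

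Clock genes had regions of differing strength. Nr1d1 encodes REV-ERB alpha, a repressor of the clock. Its regions had 9.36 and 25.1 (8048 bp from its start, with CACGTG), 9.45 and 20.9 (1113 bp) and 4.48 and 6.25 (2153 bp, also with CACGTG). The region in Per1, a period gene induced by glucocorticoids, had 7.58 and 16.2. The region beside Bhlhe41, 1083 bp from its start and with CACGTG, had 3.92 and 7.55, that of Bhlhe40, its paralogue, 4.48 and 8.35, and that in Cry2, a cryptochrome gene, 4.83 and 8.56 with CACGTG. The better ranked region of Tef, which encodes a D-box factor, had 5.84 and 11.5 and itself held TTATGTAA, the D-box.

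Contractile genes had regions at several places of the order. The sarcomere list had 6 of 30 genes, the fast fibre list 4 of 20, the slow fibre list 3 of 16, and glycolysis and glycogen 5 of 21. The region near Acta1, skeletal actin, was in place 317 with 4.27 and 7.26. That in Tnnt3, fast troponin T, was in place 845 (3.70 and 4.30), and that near Atp2a1, the fast fibre calcium pump, in place 894 (3.11 and 4.72). All 3 held CAGCTG, which was in 29.6% of the 1000 windows, and whether regions at contractile genes hold it more often was not tested. Regions of Xirp2 (3.28 and 6.14), Myom1 (2.86 and 6.24) and Flnc (3.23 and 4.68) were of like strength. The windows of Ckm, Myh4, Myh2, Myh7, Pvalb, Pygm, Pfkm, Myog, Myod1 and Mef2c held none, although Pfkm had 18 and Pygm 11 distal shared peaks of lesser rank. Those of the myosin genes Myh4, Myh2 and Myh7 held no distal shared peak at all. At Myod1, 1 region 38794 bp from the gene (2.31 and 7.06) had it as nearest coding gene.

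Early response and hormone target genes were represented. Of 15 immediate early genes, 4 held a region: Fos (2), Nr4a1 (2), Ier2 and Nr4a3. Nr4a1, an exercise-induced orphan receptor gene, was nearest to 4, with 8.13 and 19.4, 6.63 and 8.98, 4.75 and 7.29, and 3.71 and 5.96. The region 1573 bp from Nr4a3, its relative, had 5.28 and 14.2 and held a MEF2 box and a GC box. Of 17 atrophy and glucocorticoid genes, 4 held one. Zbtb16, a glucocorticoid-induced zinc finger gene, held 4 in its introns, the strongest with 6.25 and 11.5, and Fbxo32, the ubiquitin ligase of atrophy, held 1 with 6.03 and 10.6. The region of Fkbp5, a receptor cochaperone, had 6.19 and 5.56. Of 15 insulin and growth genes, 4 held one, Igf1r (2), Insr (4.15 and 11.6), Irs1 (4.45 and 9.23) and Smad3.

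Genes of other cell types are read against the 3.50% of all genes, and with lists this short a count of 0 shows no difference from it. In short sets of markers, muscle fibre had 3 of 7 (Acta1, Tnnt3 and Atp2a1), fibroblast 1 of 5 and tenocyte 1 of 3. Every other marker set had 0. The longer lists are given from here on, where the sarcomere list had 6 of 30. The endothelial list had 0 of 14, mural and smooth muscle 0 of 11, macrophage 0 of 10, Schwann cell 0 of 9, adipocyte 0 of 8 and the control list of hepatocyte genes 0 of 10. Cdh5 and Pdgfra, which mark endothelium and fibroblasts, were among those at 0. Fibroblast genes had 2 of 12, with the region near Col1a1 at 2.41 and 7.89, and tenocyte genes 1 of 7, with 2 regions near the tendon regulator Scx at 3.57 and 7.75 and at 3.58 and 6.48. The satellite cell list had 1 of 10, Heyl (2.97 and 5.23), the neuron list 1 of 9, and the neuromuscular junction list 0 of 14. Weaker distal shared peaks lay at 9 of the 14 endothelial genes and 4 of the 10 macrophage genes. In a whole tissue, fewer cells of a type and less signal per cell cannot be told apart.

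Regions of the set came in runs. A neighbour of the set lay within 10 kb of 195 of the 1000 regions, against 114 of the next 1000 among themselves. They formed 86 runs, 15 of them with 3 or more regions. The longest held 7 regions in 16.3 kb between Nr1d1 and Msl1 on chromosome 11. Beside the 3 of Nr1d1, its others lay 6356 to 9456 bp from Msl1, a gene of the histone acetylation complex that compensates dosage in flies, with signals from 3.17 to 5.06 in replicate 1 and 7.08 to 10.4 in replicate 2. Runs of 4 lay at Kdm6b, a histone demethylase gene, where the strongest had 6.4 and 18, between Morn1 and Ski (strongest 4.70 and 12.1), at Tef and Tob2, and on the 3′ side of Irf2bpl. Irf2bpl was the nearest coding gene of 8 regions, from 3463 to 68258 bp away, with signals of 2.62 to 4.02 in replicate 1 and 4.95 to 10.8 in replicate 2. Its relative Irf2bp2 was nearest to 5, the best ranked with 6.49 and 14.1 and 141895 bp from it. By gene body plus 10 kb, Morn1 held 5, and Nfic, Zbtb16, Gse1, Kdm6b and Msl1 held 4 each. Chromosome 11 carried 11.1% (9.22 to 13.2) of the regions against 7.87% of the other distal shared peaks, and chromosome 3 carried 2.1% (1.30 to 3.19) against 4.36%.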

How the data were processed

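DNase-seq peaks of 2 gastrocnemius libraries were used as deposited. The authors gave each peak a signal value of unstated scale, and a p-value column for footprints (0.01 in every row) and for cut-rate segments, read as a false discovery rate. Peaks were called in each library alone from alignments on mm10, per the README deposited with it. The aligner, the caller and the depth: not given in the sources used here. The longer of 2 peak lists per library was used. Overlapping or touching peaks were merged, average ranks of the strongest signal were taken over all shared peaks, and distance was measured from the region's nearest base to starts in GENCODE release M21. Motifs were sought in 150 bp windows around the mean midpoint of the strongest peaks; a motif was called at a ratio of 1.5 with exact Clopper-Pearson 95% intervals apart. Long motifs (MEF2, CTCF, NRF1, SRF, glucocorticoid receptor, NFI and HSF) are named without letters, and AP-1 sites lie inside the longer MAF and NRF2 motif. Regions, motifs and gene lists were chosen with earlier results of these data known. The rule named the best 10 regions, those at the edge, the best with each called motif, the 10 genes with most regions, 3 genes per list and 20 set genes; all others named, and the CCAAT core, were picked after their values were seen. Scripts used Python 3.11.15, numpy 2.4.6, pandas 2.3.3, scipy 1.17.1 and matplotlib 3.10.9, tested on simulated peaks. Other settings are in the closing part. No region was imputed or dropped from the counts; values of a few named genes are not reported here.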

Additional observations from a re-analysis of the deposited data

How the results depend on the processing

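Counts of regions, motif shares, footprint shares, location, spacing, CpG content and gene lists were recomputed under 16 planned settings and 5 chosen after seeing the data, at most 17 for any of them. Sites in footprints, site positions, shares by order, the comparison with peaks near starts, the cut-rate profile and chromosome shares were not recomputed. No paired analysis was possible because there is 1 group of 2 libraries and no contrast to pair. The motif share was called higher for CCAATCA, GGGCGGGG and TGACGTCA under all 17 settings that touched motifs, and for NRF1 under 16. CACGTG also lost its call with 5 kb (1.38), the best 2000 (1.42) and without the best 250 (1.47), the receptor element with 5 kb (1.74) and without replicate 1 (1.61), and CCACACCC lost it under 6 of the 17 (ratios 1.15 to 1.61). SOX lost its call in 6, and SRF gained one in 7. Ranking by 1 library kept 840 to 848 regions, 7 to 8 higher motifs, 99.25% to 99.45% of regions with a footprint, 44.5% to 46.2% in introns, 184 to 221 within 10 kb of another, 23.6% to 25.9% CpG-rich and 46 to 56 listed genes (53 with both). A distance of 5 kb kept 606 regions, with 16.7% CpG-rich. Starts of protein-coding genes alone gave 33.5% CpG-rich and 40.3% in introns. The best 500 gave 500 regions, 99.8% with a footprint, 41.8% in introns, 77 near another, 32.0% CpG-rich and 29 listed genes; the best 2000 gave 99.125% with a footprint, 49.2% in introns, 526 near another and 18.25% CpG-rich. Against windows 1 kb either side that overlap no peak, 12 motifs were higher, CAGCTG at 4.50 and SRF at 5.16 times the background among them. AP-1 reversed to 3.64 times and NFI half-sites to 2.36 times, both called, and CTCF to 1.54 times, not called. A footprint wholly in the central 150 bp was found in 97.55% of regions. Gene windows of 50 kb gave 82 listed genes, and 25 kb gave 300 regions near another. Without regions near a RefSeq start 21.8% were CpG-rich; without CpG-rich windows 52.3% were in introns, CACGTG lost its call at a ratio of 1.45, and NRF1 lost it because its intervals overlapped (ratio 3.81). Without the best 250, 49.3% were in introns, 107 lay near another and 17.9% were CpG-rich. The cause of these shifts was not tested beyond the construction of each setting. Depth is unknown, the 2 libraries may share a donor, and the signal scale limits any reading between them.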
